A study of Mus musculus with 16 samples.

Results

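The 6 interferon regulatory factor genes Irf1, Irf2, Irf4, Irf5, Irf7 and Irf8, were followed through single-nucleus RNA-seq of the mouse hippocampus. They were taken by gene symbol, 6 of the 32285 genes in each count table, and their unique molecular identifiers (UMIs, 1 per captured transcript copy) were summed per library and per class of nuclei. The 16 libraries were each 1 male mouse, with 4 in each of 4 groups. The WT vehicle and WT DMXAA groups were C57BL/6 mice aged 2 months and 23 days, and the KO vehicle and KO DMXAA groups were Ifnar1-/- mice aged 3 months and 3 days. Ifnar1 encodes one of the paired chains that bind type I interferon, and DMXAA is an agonist of mouse STING, the adaptor that signals cytosolic DNA and induces interferon. DMXAA or vehicle was injected repeatedly into the peritoneum, and hippocampi were taken 1 day after the last dose. The receptor is missing from every cell of the KO mice, genotype coincided with age, and the effects of these cannot be told apart. The comparisons ask whether DMXAA changed the members within each genotype, and how the genotypes differed without it.

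Interferon regulatory factors bind a repeated GAAA motif, the interferon-stimulated response element, through a shared DNA-binding domain. IRF7 is kept low in most resting cells, is itself induced by type I interferon, and after phosphorylation amplifies interferon gene transcription. IRF1 activates antigen presentation and other immune genes, and IRF2 occupies many of the same sites and was first described as its antagonist. IRF5 acts downstream of Toll-like receptors in myeloid cells, IRF8 with PU.1 sets up macrophages and microglia, and IRF4 is known mainly from lymphocytes and some myeloid cells. Irf3 and Irf9 were not among the genes followed.

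On GRCm38 (GENCODE M21), Irf1 lies at chr11:53770014-53778374 on the plus strand and Irf2 at chr8:46739732-46847458 on the plus strand. Irf4 lies at chr13:30749226-30766976 and Irf5 at chr6:29526625-29541871, both on the plus strand. Irf7 lies at chr7:141262706-141266481 on the minus strand and Irf8 at chr8:120736358-120756694 on the plus strand. Counts covered whole genes, introns included. Irf5 shares 1045 bases with Tnpo3 and Irf7 shares 45 bases with Phrf1, both on the opposite strand, and Irf2 overlaps the antisense genes Gm45479 and Gm31172. Irf8 lies whole, over 20337 bases, within Gm20388 on the same strand, and Irf1 shares 907 bases with Gm17334 on the opposite strand, and neither of these genes is in the count tables. Reads of such pairs are uncertain where strand was not used in counting.

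The promoters of the members the results turn on are shown to place the motifs through which interferon signals act. Each sequence is the 250 bases before the RefSeq start site (GRCm38.p6), 5′ to 3′ on the strand of the gene. Capitals mark matches, on either strand, to GAAANNGAAA (the core of the interferon-stimulated response element) or TTCNNNGAA (the gamma-activated site).
Irf7, chr7:141266425-141266674, minus strand: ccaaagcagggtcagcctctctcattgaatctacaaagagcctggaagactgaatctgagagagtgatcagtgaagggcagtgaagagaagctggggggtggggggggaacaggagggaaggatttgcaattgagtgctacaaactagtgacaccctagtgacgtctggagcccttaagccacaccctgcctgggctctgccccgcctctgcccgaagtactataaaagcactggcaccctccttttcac
Irf1, chr11:53769764-53770013, plus strand: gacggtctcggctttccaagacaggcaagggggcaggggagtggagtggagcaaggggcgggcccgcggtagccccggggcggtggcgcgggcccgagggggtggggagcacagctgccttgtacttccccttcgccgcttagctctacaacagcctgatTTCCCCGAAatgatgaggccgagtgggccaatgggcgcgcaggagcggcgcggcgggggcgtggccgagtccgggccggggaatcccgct
Irf8, chr8:120736108-120736357, plus strand: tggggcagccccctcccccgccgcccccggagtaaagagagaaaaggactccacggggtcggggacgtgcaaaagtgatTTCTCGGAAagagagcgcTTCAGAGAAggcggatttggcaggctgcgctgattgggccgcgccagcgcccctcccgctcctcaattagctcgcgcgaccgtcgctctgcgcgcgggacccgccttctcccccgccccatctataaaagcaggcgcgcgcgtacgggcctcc
Irf2, chr8:46739495-46739744, plus strand: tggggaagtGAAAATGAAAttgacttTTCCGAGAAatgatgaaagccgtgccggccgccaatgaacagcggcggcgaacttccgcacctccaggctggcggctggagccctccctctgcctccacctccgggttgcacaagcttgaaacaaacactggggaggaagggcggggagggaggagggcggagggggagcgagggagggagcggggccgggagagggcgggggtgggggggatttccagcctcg

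Irf2 held a GAAANNGAAA match at -241 from its start site and a TTCNNNGAA match at -224. Irf8 held TTCNNNGAA at -171 and -153, and Irf1 held it at -90. Neither set of letters was in the Irf7 window, nor in the second windows that RefSeq gives for Irf1 and Irf8 (not shown). Among all 32851 RefSeq windows, each reaching from 250 bases before to 50 after a start, 3.44% held GAAANNGAAA and 8.30% held TTCNNNGAA, and all 6 members had a window. A match describes letters only and is not evidence of binding.

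After filtering, 111068 nuclei of 155084 deposited barcodes were kept, with 5267 to 9417 nuclei and 33343878 to 52262434 UMIs per library, and 2.87% of nuclei shared their barcode sequence with a nucleus of another library. Classes were rebuilt from marker genes and each is named as like a cell type (microglia-like, astrocyte-like), written below without the suffix, and 12.5% of nuclei stayed unnamed. A WT library, DMXAA replicate 3, stood apart from the other WT libraries and on some measures that do not use the members lay near the KO libraries. Its normalization factor over all nuclei was 0.845, against 1.09 to 1.18 in the other WT libraries and 0.850 to 0.974 in KO libraries. The 8 microglial markers summed to 30.7 CPM (UMIs as a share of all UMIs of the library and class, scaled to 1e6) in its excitatory neurons, against 68.7 to 122 in the other WT libraries and 24.7 to 48.1 in KO libraries. In its own microglia these markers were lowest of the WT libraries (6367 CPM) and excitatory-neuron markers highest (897 CPM), and both lay outside the KO ranges of 9312 to 11621 and 315 to 568 CPM. It also held 131 border macrophages, against 11 to 34 in each of the other 15 libraries. Its Ifnar1 level was 13.4 CPM, against 16.7 to 19.4 in the other WT libraries and 10.8 to 12.7 in KO libraries, where the transcript of the disrupted gene is still counted. The library was kept under its label, and values without it are given beside the results that rest on it. Dentate granule, CA1 and CA3 neurons were found in every library.

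In all kept nuclei together, 77718 UMIs came from Irf2, 3123 from Irf8, 2354 from Irf1, 1754 from Irf5, 886 from Irf7 and 115 from Irf4. Level is given as CPM of the summed UMIs, and levels are compared between classes or groups of 1 gene and not between genes. The members fell into 3 patterns across classes in WT vehicle mice. Irf5 and Irf8 were centred on microglia and border macrophages, Irf2 was present in every class, and Irf1 lay between.

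**Figure D1:**
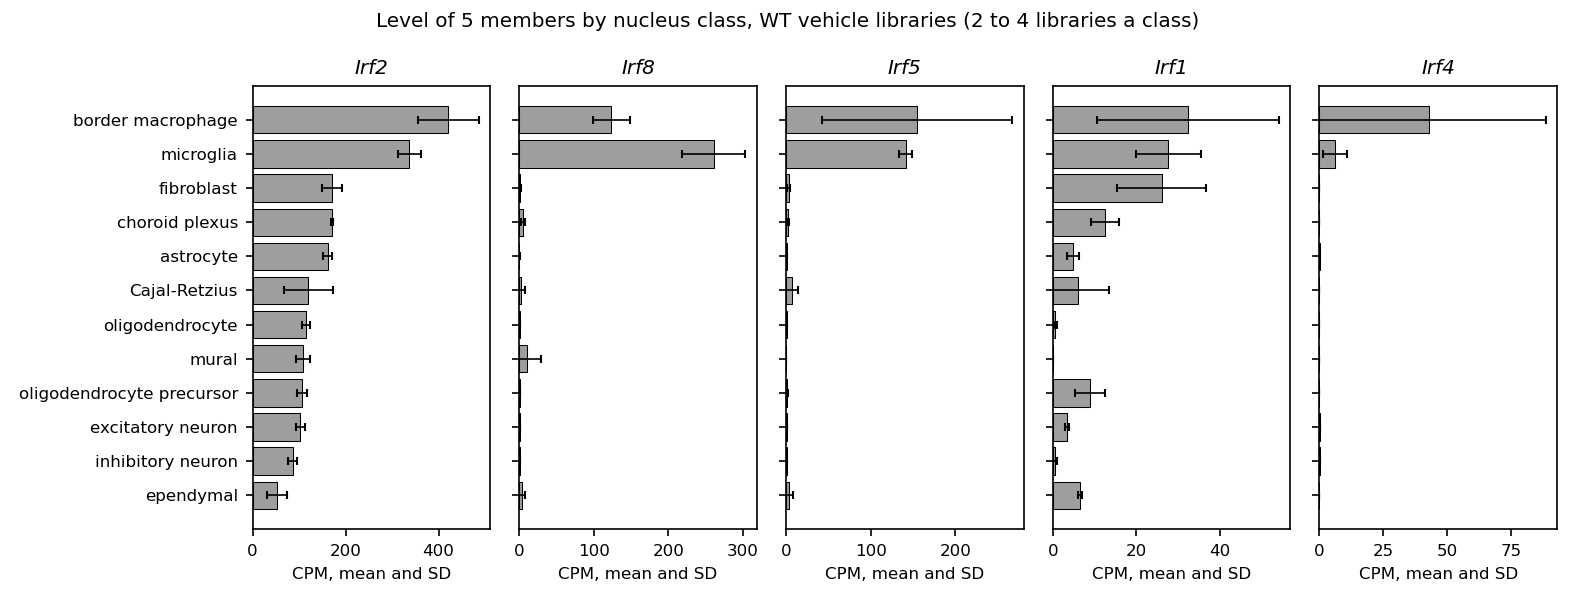
Level of Irf2, Irf8, Irf5, Irf1 and Irf4 in each named class in WT vehicle mice, in CPM on linear axes that start at 0, with the mean as a bar and the SD as a line over the 2 to 4 libraries with at least 20 nuclei of the class. Irf7 is plotted separately. Irf8 averages 260 CPM in microglia and at most 10.6 outside microglia and border macrophages, whereas Irf2 averages 52.8 or more in each class shown.

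Irf8 was highest in microglia at 260 ± 42.7 CPM (SD, n = 4) and next highest in border macrophages at 124 ± 24.3 (n = 3 libraries), and the ranges of these did not overlap. Of all Irf8 UMIs, 80.9% were in microglia, which were 4.37% of nuclei. Irf5 was at 155 ± 112 CPM in border macrophages (n = 3) and 141 ± 7.75 in microglia (n = 4), with overlapping ranges. Of Irf5 UMIs, 70.9% were in microglia. In every other class Irf8 averaged at most 10.6 CPM and Irf5 at most 6.68.

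Irf2 was highest in border macrophages at 421 ± 65.6 CPM (n = 3) and microglia at 337 ± 24.9 (n = 4), whose ranges overlapped. Both stood above fibroblasts (171 ± 21.7), choroid plexus (171 ± 2.07) and astrocytes (161 ± 10.6) without overlap. From fibroblasts down to inhibitory neurons (86.2 ± 9.79) each class overlapped the next in the order, and ependymal nuclei were lowest at 52.8 ± 21.8 in 2 libraries. Excitatory neurons, at 103 ± 9.16 CPM, held 57.7% of all Irf2 UMIs.

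Irf1 was highest in border macrophages (32.4 ± 21.7 CPM, n = 3), microglia (27.6 ± 7.77, n = 4) and fibroblasts (26 ± 10.6, n = 4), whose ranges overlapped. Excitatory neurons had 3.44 ± 0.478 CPM, above oligodendrocytes at 0.624 ± 0.311 without overlap, and inhibitory neurons had 0.497 ± 0.575. This was the only break between neighbours in the Irf1 order. Irf4 was at 42.9 ± 45.6 CPM in border macrophages and 5.91 ± 4.71 in microglia, and 0 in the 7 classes below astrocytes. Irf7 was at or below 4.53 CPM on average in WT vehicle mice in every class with at least 2 libraries, other than border macrophages (13.7 ± 14.2, from 2 UMIs).

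Within excitatory neurons, Irf1 was highest in dentate granule neurons in 14 of 16 libraries, and Irf2 was lowest there in all 16. Irf1 in dentate granule neurons was 6.95, 6.83, 6.92 and 7.47 CPM in the 4 WT vehicle libraries. In CA1 neurons of the same libraries it was 0.287, 0.651, 1.96 and 2.13 CPM. Dentate granule neurons were above CA1 in all 16 libraries and above CA3 in 14 of 16.

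Irf2 in dentate granule neurons was 72.0, 71.6, 71.3 and 80.3 CPM in WT vehicle libraries, against 102, 121, 105 and 138 in CA1. It was below CA1, CA3 and the remaining excitatory neurons in all 16 libraries. These orders are descriptions within libraries, since the regions of a mouse share 1 library.

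**Figure D2:**
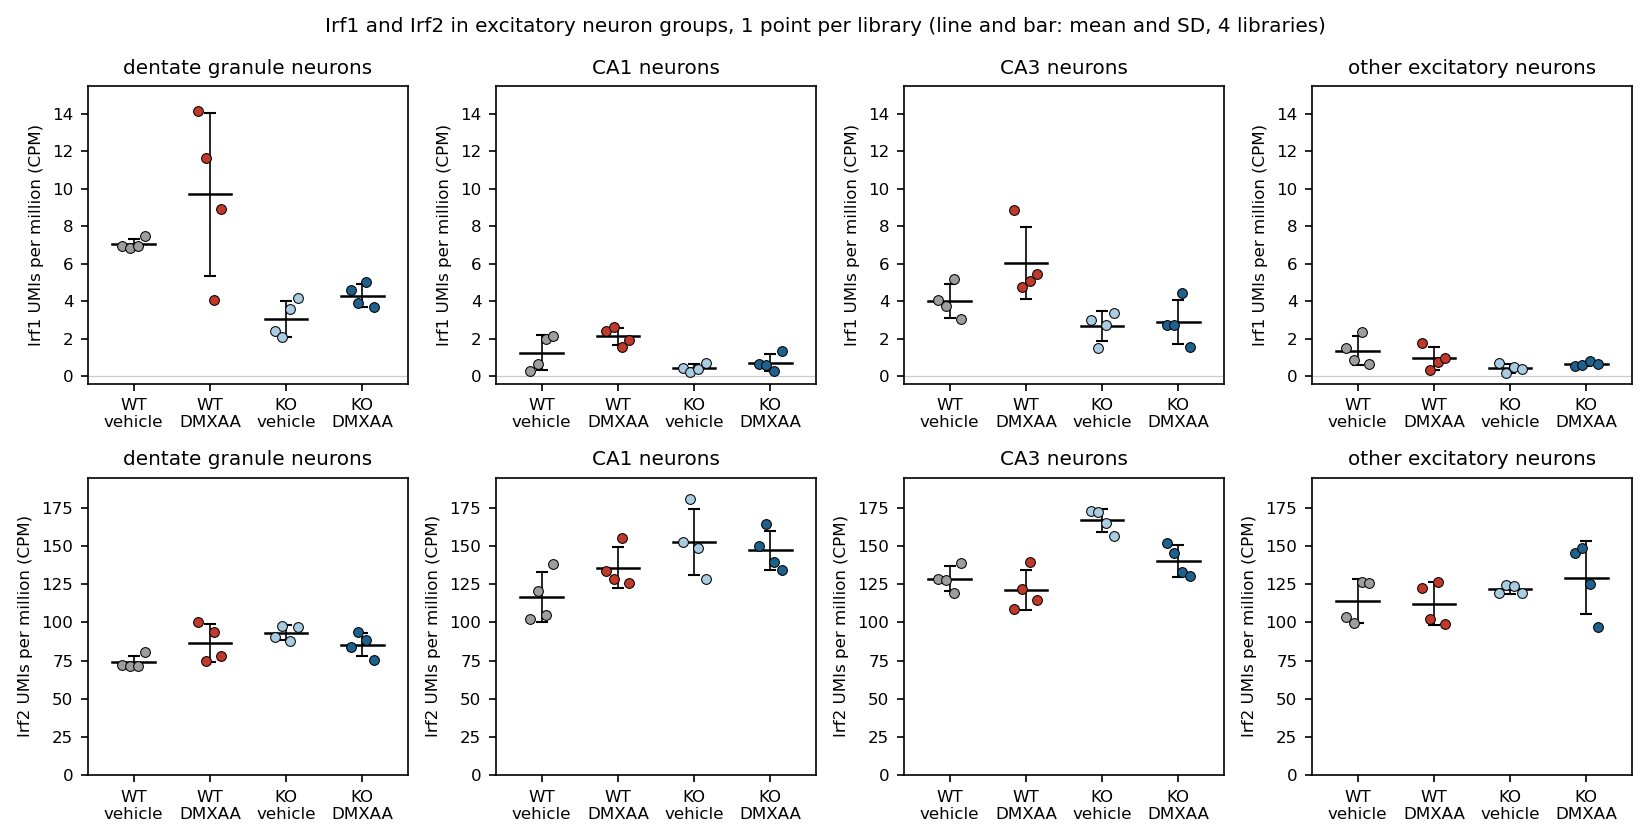
Levels of Irf1 and Irf2 in CPM in dentate granule, CA1, CA3 and other excitatory neurons, 1 point per library and with lines for the mean and SD of each group of 4. Irf1 was highest in dentate granule neurons in 14 of 16 libraries, and Irf2 was lowest there in all 16.

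Irf8 also varied between excitatory clusters. It was at 5.05 CPM in a cluster of 3574 nuclei (cluster 9) and at 2.16 in another of 3485 (cluster 10), pooled over libraries, against 0.337 in the dentate granule cluster. The summed microglial markers were 77.3 CPM in cluster 9, 52.6 in cluster 10 and 69.6 in the dentate granule cluster, and their part in the Irf8 levels was not tested.

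Irf7 was the member with the largest rise after DMXAA in WT mice, in microglia and over all nuclei. In microglia, WT vehicle libraries held 0, 4.82, 1.63 and 0 CPM and WT DMXAA libraries 123, 50.7, 16 and 53.0 CPM, in replicate order. The lowest treated library, replicate 3, was above the highest vehicle library, and the groups did not overlap. All 4 DMXAA libraries lay above all 4 vehicle libraries for 2.17% of the 8922 genes tested in microglia. Irf7 is not among these genes, since its counts there were too low for the filter.

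The WT microglial values rest on 177 UMIs after DMXAA and 4 after vehicle, a pooled ratio of 38.1 with a 95% interval of 14.6 to 141 from counting error alone. It was 49.4 (18.9 to 184) without WT DMXAA replicate 3, 24.7 (9.33 to 92.9) without replicate 1 and 116 (20.5 to 4603) without WT vehicle replicate 2, which held 3 of the 4 vehicle UMIs. In KO mice all 8 libraries were at 0. A count of 0 allowed up to 1.64 CPM, or 0.311% of 964 microglia, in the vehicle group, and up to 1.53 CPM, or 0.281% of 1068 microglia, in the DMXAA group (a floor of 3 counts over the group). The limits in percent are on microglia in which an Irf7 UMI was captured, not on microglia that express the gene.

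With so few counts in most libraries, Irf7 did not pass the filter on low counts in microglia and was not tested there by the primary edgeR quasi-likelihood fit. In that fit 0 of the 4 tested members were called at an adjusted p under 0.05 in WT microglia, beside 1.87% of the 8922 genes tested. Without the filter, Irf7 had a log2 fold change of 5.14 (SE 0.64, edgeR adjusted p = 1.76e-06), beside 1.04% of 21378 genes called. The difference between the WT and KO responses could not be estimated for Irf7 in microglia, with all KO libraries at 0. For the 4 members tested there it was called in 0, beside 0.123% of genes, and over the named classes in 0 pairs, beside 0.0202%.

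The share of microglia with an Irf7 UMI was counted as well. When each nucleus was thinned to 1000 UMIs, which 1461 of 1491 WT DMXAA and 1318 of 1333 WT vehicle microglia reached, the share was 12.7%, 5.90%, 2.25% and 4.62% in WT DMXAA libraries and 0, 0.639%, 0.312% and 0 in WT vehicle libraries. The means were 6.36% ± 4.47 and 0.238% ± 0.305 (SD, n = 4 each), with an exact two-sided permutation p of 0.0286, the smallest that 4 against 4 allows. It was 1 of 12 such comparisons, over 6 members and both genotypes, and did not pass after Benjamini-Hochberg adjustment over the 12 (adjusted p = 0.343 from the exact permutation tests). It could not have passed unless most of the 12 had reached that smallest p, so the adjusted value decides nothing. All 4 treated shares lay above the highest vehicle share, and the other 11 comparisons had an unadjusted exact p of 0.143 or more. Unthinned, 150 of 1491 WT DMXAA microglia held an Irf7 UMI, of which 127 held 1, 19 held 2 and 4 held 3 or more, against 3 of 1333 after vehicle.

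**Figure D3:**
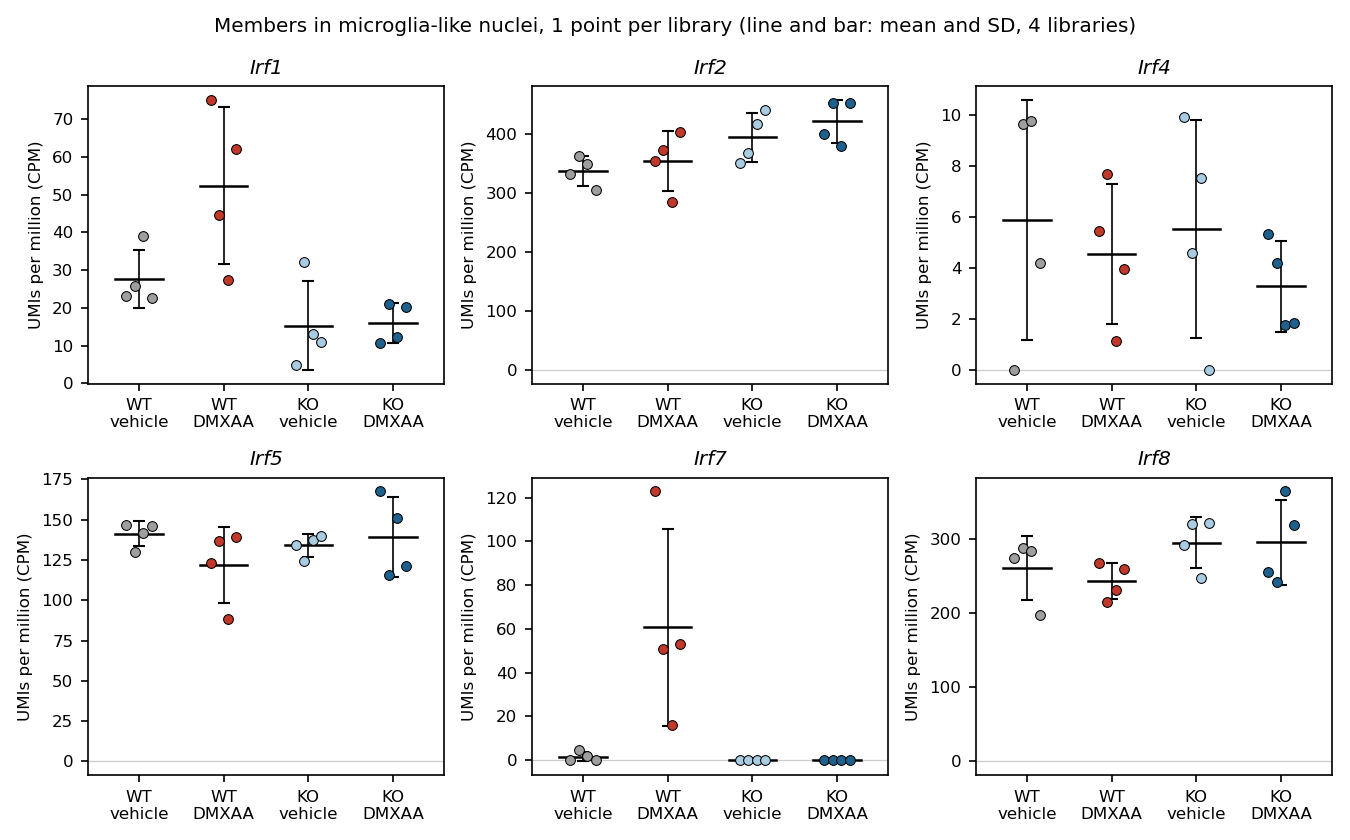
Levels of the 6 members in microglia in CPM, 1 point per library, with lines for the mean and SD of each group of 4. Irf7 is at 16 to 123 CPM in the 4 WT DMXAA libraries, at most 4.82 after WT vehicle and 0 in all KO libraries, whereas the other members overlap between treatments within a genotype.

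Irf7 was also higher outside microglia. In sums over all nuclei, a change in the shares of classes and a change in level per nucleus cannot be told apart. Over all nuclei, WT vehicle libraries held 0.244, 0.481, 0.262 and 0.263 CPM, and WT DMXAA libraries held 11.5, 4.08, 1.11 and 3.84. The log2 fold change was 4.02 (SE 0.52, edgeR adjusted p = 9.37e-04), the only member of 5 tested that was called, beside 0.466% of 20159 genes. WT DMXAA replicate 1 gave 436 of the 781 WT DMXAA UMIs, and without it the pooled ratio to vehicle fell from 15.4 (95% counting interval 11.6 to 21.0) to 8.88 (6.59 to 12.2) and the log2 fold change was 3.26, still called. Without replicate 3 these were 21.1 (15.8 to 28.6) and 4.33. The call was lost when only WT libraries were fitted (4.02, edgeR adjusted p = 0.0659). KO libraries held 0.0676 to 0.201 CPM after vehicle and 0.169 to 0.284 after DMXAA, and the log2 fold change of 0.63 (SE 0.68, adjusted p = 0.83) did not pass. The difference between the 2 responses was 3.39 (SE 0.88), with an edgeR adjusted p of 0.286, beside 0.0645% of genes called. DESeq2 called it (3.42, DESeq2 adjusted p = 0.00701), in a fit that called 123 of 20159 genes, against 13 in edgeR.

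In excitatory neurons, Irf7 was at 0.147, 0.190, 0.122 and 0.256 CPM after WT vehicle and 9.08, 2.49, 0.473 and 2.22 after WT DMXAA. The log2 fold change was 4.26 (SE 0.67, adjusted p = 0.0107), beside 0.119% of 17622 genes called. Irf7 passed the filter there only through the WT DMXAA libraries, where it had 17 to 221 UMIs against 1 to 7 in each of the other 12, so it had to differ and the call adds no support to these levels. It was 1 call among 21 pairs of a member and a named class tested, beside 0.28% of all tested genes over the named classes. Without WT DMXAA replicate 1, which gave 221 of 341 UMIs, the pooled ratio went from 18.3 (11.5 to 30.7) to 8.40 (5.15 to 14.4), and without replicate 3 it was 26.6 (16.7 to 44.7). The call was lost without WT vehicle replicate 1 (adjusted p = 0.0685) or replicate 3 (0.0672), and when only WT libraries were fitted (0.426). The difference from the KO response was 3.27 (SE 1.37, adjusted p = 0.738).

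Dentate granule neurons held 184 of the 341 Irf7 UMIs of WT DMXAA excitatory neurons, with 15.0, 4.23, 0.661 and 3.11 CPM after WT DMXAA against 0 to 0.171 after vehicle. They were above CA1, CA3 and other excitatory neurons in each of the 4 WT DMXAA libraries. In astrocytes, Irf7 was 14.8, 6.52, 0.785 and 6.06 CPM after WT DMXAA and 0.295 to 1.66 after vehicle, so that replicate 3 overlapped the vehicle range.

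The remaining classes gave few Irf7 UMIs. Oligodendrocyte precursors held 19 UMIs after WT DMXAA and 0 after vehicle, at least 6.81-fold higher when the vehicle group is set to 3 counts in all. WT DMXAA replicate 1 gave 12 of the 19, and without it the bound was at least 3.26-fold. Choroid plexus held 34 and 1, a ratio of 26.2 (95% interval 4.4 to 1066), and oligodendrocytes 39 and 3, a ratio of 11.7 (3.70 to 58.9). WT DMXAA replicate 1 held 28 of the 39 in oligodendrocytes, and without it the ratio there was 4.23 (1.12 to 23.6). Without WT vehicle replicate 2 it was 25.9 (4.38 to 1047) in oligodendrocytes, and in choroid plexus the single vehicle UMI was lost, leaving a bound of at least 3.91-fold (16.7, 2.63 to 694, without WT DMXAA replicate 1). Border macrophages held 19 and 2, a ratio of 4.59 (1.11 to 40.7) in which WT DMXAA replicate 3 gave 131 of 194 treated nuclei, and fibroblasts 40 and 9, a ratio of 4.68 (2.24 to 11). Leaving out 1 library moved these to 3.05 (0.665 to 28.3) without WT DMXAA replicate 2 and 7.94 (1.77 to 73.1) without replicate 3 in border macrophages, 7.58 there without WT vehicle replicate 4, and to 3.07 (1.34 to 7.66) without WT DMXAA replicate 1 in fibroblasts. The border macrophage class also differed in its markers between the WT groups. Its own markers summed to 1771 to 7090 CPM after WT DMXAA and 8252 to 10697 after vehicle, without overlap. Monocyte and neutrophil markers there summed to 340 to 3641 and 177 to 333 CPM. The part of this difference in the border macrophage ratio was not tested. Without the filter on low counts, edgeR called Irf7 higher in WT mice in 6 named classes, with log2 fold changes of 2.23 to 5.33. These were microglia, astrocytes, oligodendrocyte precursors, excitatory neurons, fibroblasts and choroid plexus. The edgeR adjusted p ran from 1.76e-06 in microglia to 0.0357 in fibroblasts and 0.0377 in astrocytes. In oligodendrocytes (edgeR adjusted p = 0.675), border macrophages (0.552) and inhibitory neurons (0.937) such fits did not call Irf7. Nor did they in ependymal (0.910), Cajal-Retzius (0.860) or mural nuclei. Inhibitory neurons held 12 Irf7 UMIs after WT DMXAA and 1 after vehicle, ependymal nuclei 8 and 0, and Cajal-Retzius nuclei 4 and 0. Such fits called 222 of 21378 genes in microglia and 26 of 27738 in excitatory neurons, and the shares in the other classes are not given here. Endothelial nuclei numbered 5 in the WT DMXAA group and could not be fitted.

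**Figure D4:**
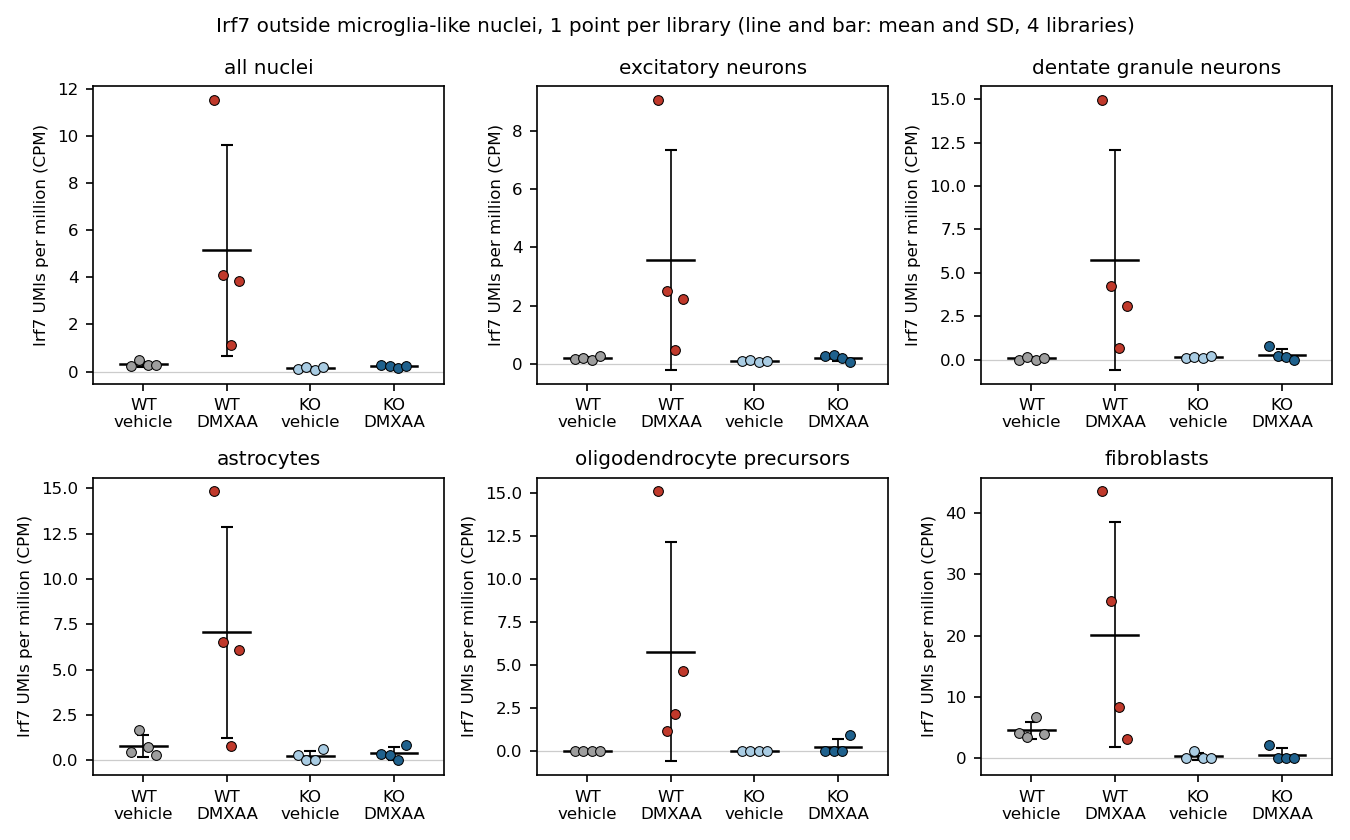
Irf7 level in CPM over all nuclei and in 5 classes or regions outside microglia, 1 point per library, with lines for the mean and SD of each group of 4. In WT mice all 4 DMXAA libraries are above all 4 vehicle libraries over all nuclei, in excitatory neurons, in dentate granule neurons and in oligodendrocyte precursors, and the groups overlap in astrocytes and fibroblasts. Over all nuclei such a separation held for 0.987% of 20159 genes tested, and no such share is given for the classes.

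Free RNA in the droplets carries transcripts of one class into others, and its part in the Irf7 values was not tested. In WT DMXAA libraries there were 0.241 Irf7 UMIs per Irf8 UMI in microglia, against 2.69 in excitatory neurons, 4.33 in oligodendrocytes, 12.6 in astrocytes and 15.3 in dentate granule neurons. These rest on 733, 127, 9, 5 and 12 Irf8 UMIs. The WT vehicle values in the same order were 0.00597, 0.19, 0.75, 8 and 0.25, that in astrocytes on 1 Irf8 UMI. Per 1000 UMIs of microglial markers, WT vehicle libraries had 0.152 Irf7 UMIs in microglia, 2.22 in excitatory neurons and 6.67 in astrocytes. WT DMXAA libraries had 7.21 in microglia, 39.4 in excitatory neurons and 58.9 in astrocytes. Without WT DMXAA replicate 1 these were 4.62, 20.3 and 40.6, and the values per Irf8 UMI were 0.162 in microglia, 1.46 in excitatory neurons, 1.83 in oligodendrocytes, 8.5 in astrocytes and 7.30 in dentate granule neurons, the last being 29.3 without replicate 3 on 6 Irf8 UMIs. After thinning to 1000 UMIs, 6.30% of WT DMXAA microglia held an Irf7 UMI, against 0.822% of astrocytes, 0.313% of excitatory neurons and 0.173% of inhibitory neurons. Median depths before thinning were 1934 UMIs in microglia and 8070.5 in excitatory neurons.

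Irf1 was higher after DMXAA in 3 of the 4 WT libraries in microglia. WT vehicle libraries held 23.2, 25.7, 39.1 and 22.5 CPM and WT DMXAA libraries held 75.2, 44.5, 27.5 and 62.2. Replicate 3 of the DMXAA group lay within the vehicle range, and the other 3 lay above it. The log2 fold change was 0.94 (SE 0.36, edgeR adjusted p = 0.319) and was not called. Without WT DMXAA replicate 3 it was 1.13 (SE 0.29, adjusted p = 0.0122), called beside 8.19% of genes in that fit.

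Over all nuclei Irf1 was also higher in 3 of the 4 WT DMXAA libraries, and replicate 3 lay below the vehicle range, with 3.31, 4.27, 4.72 and 3.42 CPM after WT vehicle and 7.57, 5.91, 3.29 and 5.77 after WT DMXAA. The log2 fold change was 0.56 (SE 0.17, adjusted p = 0.403), and without replicate 3 it was 0.67 (SE 0.15, adjusted p = 0.0399), beside 1.43% of genes called. In KO microglia Irf1 was at 4.98, 32.2, 13.2 and 10.9 CPM after vehicle and 10.7, 21.0, 12.3 and 20.2 after DMXAA, with overlapping groups and a log2 fold change of 0.03 (SE 0.48, adjusted p = 0.999, edgeR). The difference between the genotypes' responses in microglia was 0.91 (SE 0.60, adjusted p = 0.647).

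Of 1491 WT DMXAA microglia, 139 held an Irf1 UMI, and 17 held both Irf1 and Irf7. After WT vehicle, 64 of 1333 microglia held an Irf1 UMI. The thinned share of microglia with an Irf1 UMI was 4.68% ± 2.25 after WT DMXAA and 2.56% ± 0.596 after vehicle (n = 4 each, exact permutation p = 0.143). In oligodendrocytes, where the gene is nearly absent, it was 0.074% after WT DMXAA and 0.0426% after vehicle, at median depths of 2100 and 2165 UMIs against 1934 and 1856 in microglia.

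Irf2 showed no called change with DMXAA. In microglia it was at 332, 362, 349 and 304 CPM after WT vehicle and 354, 372, 284 and 404 after WT DMXAA. The log2 fold changes over 12 named classes ran from -0.46 to 0.67 in WT mice, with 0 called, and over 13 named classes from -0.44 to 0.10 in KO mice, with 0 called. No gene was called after DMXAA in KO mice in the primary fit of any named class (0%). In KO microglia 442 of 8922 genes had an unadjusted p under 0.05, and the limma-trend and DESeq2 fits also called 0. Over all KO nuclei 1158 of 20159 genes had an unadjusted p under 0.05, edgeR and limma-trend called 0 and DESeq2 called 3, none of them a member.

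Irf2 differed between genotypes without DMXAA. Over all nuclei WT vehicle libraries held 107, 105, 112 and 121 CPM and KO vehicle libraries held 137, 149, 140 and 135. The groups did not overlap, and the log2 difference of KO from WT was 0.66 (SE 0.14, adjusted p = 0.00175), beside 48.6% of genes called. In oligodendrocytes it was 126, 114, 106 and 115 CPM in WT and 178, 175, 182 and 173 in KO vehicle libraries, a log2 difference of 0.77 (SE 0.11, adjusted p = 4.24e-04).

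In named classes the difference was positive in 12 of 12 and called in 6, beside 27.9% of genes over all classes. The called classes were microglia, astrocytes, oligodendrocytes, oligodendrocyte precursors, excitatory neurons and inhibitory neurons, with differences of 0.37 to 0.77. The microglial call (0.37, SE 0.11, adjusted p = 0.035, beside 13.8% of genes) was lost in 14 of the 16 fits that left out 1 library. Scaled by library totals alone, a setting chosen after seeing the data, the difference was positive in 12 of 12 classes (0.05 to 0.84) and called in 4. Over all nuclei it was then 0.33 (adjusted p = 0.00196), while the median difference of all genes moved from -0.06 to -0.39. Under that scaling the calls over all nuclei moved from 4451 higher and 5343 lower to 2159 higher and 8995 lower. Against a background this large, the calls are not particular to Irf2.

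**Figure D5:**
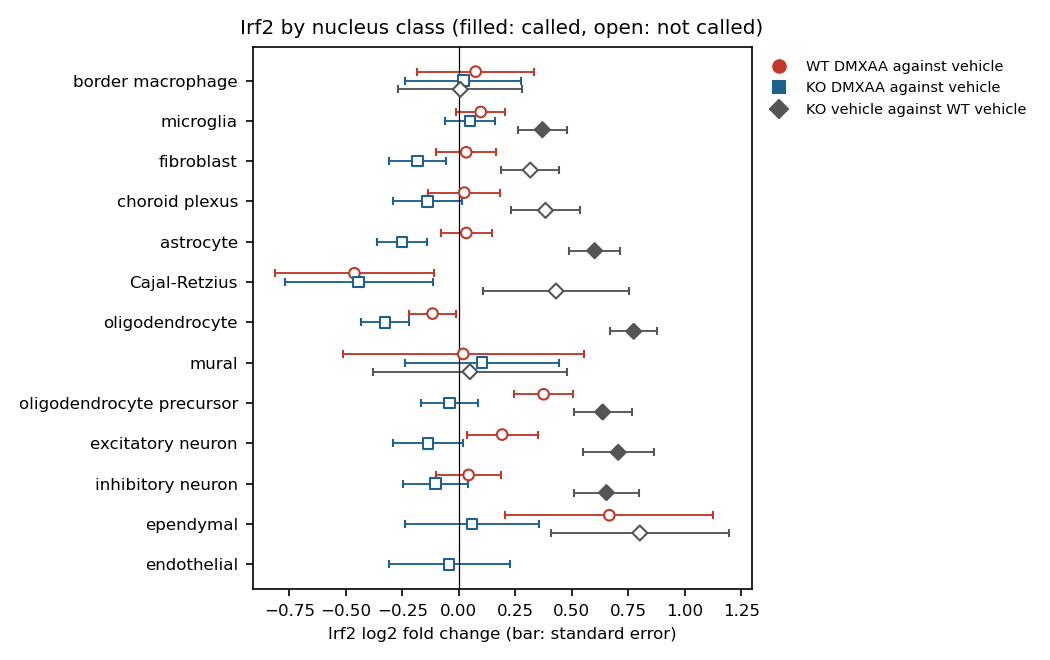
Log2 fold changes of Irf2 by named class, with bars for the standard error and filled symbols for calls, for DMXAA against vehicle in WT and KO mice and for KO vehicle against WT vehicle. The genotype difference is above 0 in 12 of 12 classes, and the DMXAA changes lie on both sides of 0.

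Irf1 was the other member called between genotypes, in the opposite direction and in excitatory neurons alone of the 4 named classes where it was tested. Its log2 difference there was -0.58 (SE 0.22, adjusted p = 0.0407), beside 49.2% of genes called. In dentate granule neurons KO vehicle libraries held 2.42, 2.11, 3.59 and 4.15 CPM, all below the WT vehicle range of 6.83 to 7.47, with a difference of -0.81 (SE 0.26, adjusted p = 0.0182), beside 49.1% called. The dentate call was lost without KO vehicle replicate 1 (adjusted p = 0.0576) or replicate 2 (0.0581), and the excitatory call in 6 of 16 fits without 1 library (0.0565 to 0.131). In dentate granule neurons the pooled microglial markers were 96.5 CPM in WT vehicle and 35.3 in KO vehicle libraries, and their part in the difference was not tested. In WT vehicle libraries there were 72.8 Irf1 UMIs per 1000 microglial marker UMIs in dentate granule neurons and 2.69 in microglia.

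No change in Irf8 or Irf5 was called in microglia. Irf8 was at 274, 288, 284 and 197 CPM after WT vehicle and 267, 215, 231 and 259 after WT DMXAA, with a log2 fold change of -0.06 (SE 0.15, adjusted p = 0.945). In KO microglia it was 291, 319, 247 and 322 after vehicle and 256, 242, 364 and 318 after DMXAA, a change of -0.05 (SE 0.15). Irf5 was at 147, 130, 142 and 146 CPM after WT vehicle and 123, 137, 88.2 and 139 after WT DMXAA, with replicate 3 lowest and a log2 fold change of -0.19 (SE 0.14, adjusted p = 0.742). In KO microglia it was 134, 124, 138 and 140 after vehicle and 168, 116, 151 and 121 after DMXAA, a change of -0.0030 (SE 0.14). The groups overlapped in each case.

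Irf4 passed the filter on low counts neither over all kept nuclei nor in any named class. Its microglial level ranged from 0 to 9.96 CPM over the 16 libraries on 44 UMIs, with overlap between all 4 groups, and another 17 UMIs were in border macrophages and 35 in excitatory neurons. Without the filter its log2 fold change in WT microglia was -0.33 (SE 0.71, edgeR adjusted p = 0.975) and was not called.

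Genes that act with the members were followed in WT microglia from lists drawn up beside them. The lists were chosen with earlier results of these data known. Their counts, here and over all nuclei, are therefore descriptions, and setting them beside the share of all genes is no independent support. Of genes that activate the factors, 14 of 18 were tested and 2 rose, Ddx58 (log2 fold change 1.89, SE 0.29) and Ifih1 (1.77, SE 0.27), which encode the RNA sensors RIG-I and MDA5, beside 1.87% of all genes tested called in either direction. The list's median was 0.32, beside 0.02 for all genes. Without WT DMXAA replicate 3, 5 of 14 rose, beside 8.19% of genes called in that fit, and without any other single WT library the count was 2.

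Of genes known to depend on IRF1, 12 of 20 were tested and 4 rose, beside the same 1.87%. Nlrc5, the activator of MHC class I genes, rose by 4.01 (SE 0.40), the peptide transporter Tap1 by 1.60 (SE 0.34), B2m by 1.21 (SE 0.24) and the immunoproteasome subunit Psmb9 by 1.04 (SE 0.26). The median was 0.77. The count was 6 of 15 without WT DMXAA replicate 3 (beside 8.19%) and 2 without WT DMXAA replicate 1 or without WT vehicle replicate 1, 2 or 4. The calls of Nlrc5 and B2m held without each of the 8 WT libraries, whereas that of Tap1 was lost without 4 of them (edgeR adjusted p 0.0517 to 0.0852) and that of Psmb9 without 6 (0.0874 to 0.170). Of the genes that restrain the factors, 6 of 10 were tested and 1 rose, Usp18 (3.92, SE 0.62). Of genes associated with IRF8 in microglia, 10 of 12 were tested and 1 fell, P2ry12, a purine receptor of resting microglia (-0.43, SE 0.11, adjusted p = 0.0496), with a median of -0.33. The P2ry12 call was lost without WT DMXAA replicate 1 or 2 or WT vehicle replicate 1, 2 or 3 (edgeR adjusted p 0.0908 to 0.185), and 0 genes of the list were called in those fits. Without WT DMXAA replicate 3, 1 gene of the list was called higher and 2 lower, beside 8.19% of genes. Without WT DMXAA replicate 4 or WT vehicle replicate 4, 2 were called lower and 0 higher, beside 2.16% and 1.63%. P2ry12 is also 1 of the 8 microglial markers, whose sum was 6367 to 9698 CPM in WT DMXAA and 9816 to 10666 in WT vehicle microglia, without overlap. Excitatory-neuron markers were at 897 CPM in WT DMXAA replicate 3, against 243 to 466 in the other WT libraries. The part of these in the fall and in the list's median was not tested. None of the 17 type I interferon genes passed the filter, and in KO microglia 0 genes of any list were called.

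Over all WT nuclei the counts were 2 of 17 activating genes, 7 of 19 genes dependent on IRF1 and 1 of 10 restraining genes higher, with none lower, and none of 12 genes associated with IRF8 were called, beside 0.466% of all genes tested called in either direction. With 1 WT library left out, the count of genes dependent on IRF1 ran from 2 (without WT vehicle replicate 3 or 4) to 8 (without WT DMXAA replicate 3), being 3 without WT DMXAA replicate 1 and 4 without WT vehicle replicate 1. Restraining genes numbered 2 and activating genes 3 without WT DMXAA replicate 3, beside 1.43% of genes called. Monocyte and neutrophil markers in microglia summed to 149 CPM in WT DMXAA replicate 1, the library with the highest Irf7 and Irf1, against 2.3 to 27.5 in the other 15, and their part in those values was not tested.

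The genes whose levels over the 16 microglial libraries were most like Irf7, by Pearson correlation of log2 CPM among 8916 genes, were Oasl2 (0.980), Trim30a (0.977) and Oas1a (0.975). For Irf1 they were Clec2d (0.884), Sms (0.883) and Ist1 (0.873). Irf5 was closest to Stat5b (0.842), Irf2 to Kcnk6 (0.849) and Irf8 to 3110009E18Rik (0.812). The points share groups and depth, so these values are descriptions. Across the 13 classes of vehicle mice, Irf5 was closest to Ncf1 (0.998), Tlr7 and Abcc3, and Irf8 to Ncf1 (0.987), Samsn1 and Lpxn.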

How the data were processed

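The deposited tables hold raw UMI counts per gene and barcode, which the authors made by aligning reads to mm10 and counting reads on pre-mRNA. The study's methods and processing notes name Cell Ranger 3.1.0, whereas the file headers name Cell Ranger 6.1.2. The notes name Seurat 3.0 and the methods a later Seurat release, for steps after the deposited counts. Gene positions came from GENCODE M21 and promoters from RefSeq (GRCm38.p6). The members and gene lists were chosen with earlier results of these data known.

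Nuclei with 200 to 4000 genes and at most 5% mitochondrial UMIs were kept, and doublets were called from simulated doublets (0.8% per 1000 nuclei within those limits) and removed. Leiden clustering (leidenalg 0.10.2, resolution 0.5) on log-scaled counts of 2000 variable genes, with 30 principal components and 20 neighbours, gave 31 clusters; 99 genes, among them the members and other interferon genes, were left out of it. Clusters were named from fixed markers, by thresholds set after the clusters had been seen (at least 3 markers found in over 10% of nuclei and enriched over 2-fold, and a lead of 0.2 in log2).

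UMIs were summed per library and class, with at least 20 nuclei, and fitted with edgeR 4.0.16 (TMM, filterByExpr, quasi-likelihood, 4 groups in 1 fit). A gene was called at a Benjamini-Hochberg adjusted p under 0.05 over all genes of the class with a log2 fold change beyond 0.1 in size, the study's thresholds, which it applied to single nuclei. CPM values are not TMM-scaled. The SE of an edgeR value is the size of its log2 fold change over the square root of its quasi-likelihood F statistic. Shares were compared by two-sided exact permutation after thinning to 1000 UMIs. Counting intervals are exact at 95% and cover counting error only. Alternatives were DESeq2 1.42.0, limma 3.58.1, RLE size factors, no low-count filter, only 1 genotype, microglia chosen by their own markers, other thinning depths and leaving out each library. The named genes are the 6 members, the called genes of each list (examples) and the 3 genes most like each member. Only the primary edgeR fit was tested on simulated data, made from microglial counts, and only for WT DMXAA against vehicle. One gene list, of factors that act together with the members, is not reported here.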

Additional observations from a re-analysis of the deposited data

Results flagged for a closer look

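In groups of 4 libraries, a library was marked where its gap to the nearest other library, over the group's whole range, passed Dixon's 95% critical value. Of 62 groups tested 4 were marked, and chance marks about 1 in 20. Irf5 over all nuclei was low in KO DMXAA replicate 2, at 2.01 CPM against 2.77 to 2.90 in the other libraries. Irf7 over all nuclei was high in WT vehicle replicate 2, at 0.481 CPM against 0.244 to 0.263. Irf8 in microglia was low in WT vehicle replicate 4, at 197 CPM against 274 to 288, and the log2 fold change of Irf8 in WT microglia was -0.18 without it. Irf8 in excitatory neurons was high in WT vehicle replicate 3, at 1.63 CPM against 0.646 to 0.804.

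Nuclei that stayed unnamed and barcodes that were filtered out entered none of the comparisons by class. In unnamed nuclei of WT mice, Irf7 had 22 UMIs after DMXAA and 1 after vehicle, pooled levels of 1.94 and 0.109 CPM. Irf1 had 39 and 12 UMIs there, pooled levels of 3.44 and 1.30 CPM. In barcodes left out by the filters, Irf7 was at 8.36, 2.77, 0.951 and 2.72 CPM in the WT DMXAA libraries and at most 0.198 in any vehicle library. These differences were not tested.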

How the results depend on the processing

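No paired analysis was possible because the replicate numbers were given in accession order and pair no libraries. Of 60 fold changes of single members, 12 were called and 0 of these reversed under any alternative; 15 that were not called reversed at least once. Members called in WT microglia went from 0 to 1 (Irf7) without the low-count filter, with only WT libraries and with microglia chosen by their own markers, and ran from 0 to 2 when 1 library was left out. Irf7 passed the filter in 13 of those 16 fits, and, as with only WT libraries and with microglia by their own markers, only through the WT DMXAA libraries where it is high, so these calls say nothing of stability. Leaving out 1 library moved its pooled ratios and the gene lists' counts, as given with them; these fits were chosen after seeing the data. Over all WT nuclei the count of members went from 1 to 0 with only WT libraries (Irf7, adjusted p = 0.0659) and ran from 1 to 2 with a library left out. Calls by member and named class in WT mice went from 1 to 6 without the filter and ran from 1 to 4 with a library left out, the 4 being without WT DMXAA replicate 3. Without that library 8.19% of genes were called in microglia and 1.43% over all nuclei, against 1.87% and 0.466% in the primary fits. Without the filter 1.04% of genes were called in microglia. DESeq2 called 1 member for the difference between responses over all nuclei (0 in edgeR), beside 123 of 20159 genes (13 in edgeR). Members called between genotypes in microglia went from 1 to 0 without the filter and with library totals alone, and ran from 0 to 1 with a library left out. Over all nuclei they went from 1 to 3 with library totals alone. All genes called there went from 9794 to 11154 of 20159, so the 3 are not particular to the members. The cause of these shifts was not tested. Thinned to 500 UMIs, the Irf1 share in WT microglia had an exact permutation p of 0.0286 (adjusted 0.171) in place of 0.143 (adjusted 0.823). That adjusted value, too, could not have passed unless most of the 12 comparisons had reached the smallest p.

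Uncalled log2 fold changes that reversed were, with library totals alone, Irf2 microglia difference between responses -0.026, Irf5 microglia KO DMXAA 0.048 and genotype -0.076, Irf8 microglia KO DMXAA 0.0055, Irf5 all nuclei WT DMXAA -0.026 and Irf8 all nuclei genotype -0.28. Without the filter, Irf5 was 0.019 for KO DMXAA in microglia and -0.015 for WT DMXAA over all nuclei, and with only KO libraries it was 0.019 in microglia. With microglia chosen by their own markers, Irf1 for KO DMXAA was -0.017 and the Irf8 difference between responses 0.0041; the latter was 0.0014 with RLE size factors and 0.0066 with limma-trend. Limma-trend gave -0.0055 for Irf5 over all WT nuclei and -0.0063 for the genotype difference of Irf2 in border macrophages, which was -0.0033 with RLE.

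With a library left out, the reversing log2 fold changes ran as follows. For KO DMXAA in microglia, Irf1 ran from -0.22 to 0.66, Irf5 from -0.10 to 0.079 and Irf8 from -0.14 to 0.041; over all nuclei Irf1 ran from -0.050 to 0.098 and Irf8 from -0.050 to 0.17. For WT DMXAA, Irf8 in microglia ran from -0.18 to 0.0012, Irf2 over all nuclei from -0.035 to 0.21 and in excitatory neurons from -0.0042 to 0.28, and Irf5 over all nuclei from -0.094 to 0.12. The difference between responses in microglia ran from -0.025 to 0.10 for Irf2 and from -0.15 to 0.10 for Irf8. The genotype difference ran from -0.22 to 0.092 for Irf2 in border macrophages, from -0.16 to 0.17 for Irf2 in mural nuclei and from -0.048 to 0.14 for Irf8 over all nuclei. Depth limits Irf4, and Irf7 outside WT DMXAA.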
